A study of Mus musculus with 5 samples.

Results

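The cells described here are germ cells of synchronized mouse testes at 144 h, compared with those at 0 h. A cell barcode was counted as a germ cell when it held at least 2000 UMIs (unique molecular identifiers, 1 per captured RNA molecule), under 20% mitochondrial UMIs, at least 2 of the 5 germ cell markers Dazl, Ddx4, Tdrd1, Mael and Taf7l, and at most 1 UMI of the somatic genes Sox9, Cldn11 and Col1a1 together. This gave 1365 germ cells at 0 h and 2462 at 144 h, 3827 in all, out of 17722 barcodes in these libraries and 46451 in the series. The cells were chosen by the measured UMIs of those 8 genes, so their own levels are not read as results.

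The series profiled whole testis by droplet single-cell RNA sequencing, with 1 library each at 0, 144, 350.4, 556.8 and 763.2 h. The 0 h library was labelled a control and the 144 h library carried the added label EP1. All libraries were labelled synchronized, and the series places the sampling at successive occurrences of stages VIII-IX of the seminiferous epithelial cycle. The labels do not say that the 0 h control is 1 of these occurrences, so the comparison is not read as the same stage at both times. Nothing in the sources used here gives the synchronizing treatment, strain, age or number of animals. With 1 library at each time no difference could be tested, so every interval below covers counting error only, and animal, library and time cannot be told apart.

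Male germ cells begin as undifferentiated spermatogonia, a population that includes the stem cells and depends on growth factors from the somatic niche. Retinoic acid makes these cells differentiating spermatogonia, which carry the receptor KIT and divide several times. A later pulse of retinoic acid turns on Stra8 strongly, and the cells copy their DNA a last time and enter meiosis, in which homologous chromosomes are held together by the synaptonemal complex and exchange DNA.

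Kept germ cells were deeper at 144 h, with a median of 14365 UMIs against 4556 at 0 h. They were 43.2% of the 5693 barcodes that passed the depth and mitochondrial limits at 144 h and 21.6% of 6327 at 0 h. The edge of the rule was thin: at 0 h 276 germ cells held exactly 2 markers and 208 barcodes with 1 marker were left out, against 101 and 157 at 144 h. The summed libraries held 12634622 UMIs at 0 h and 46230790 at 144 h, and 1 germ cell barcode was shared between them. Likewise 533 germ cells at 0 h and 618 at 144 h held 1 UMI of the somatic genes, and 334 and 176 barcodes were left out with 2 such UMIs. With no somatic UMI allowed the rule kept 832 cells at 0 h and 1844 at 144 h, and with at least 5000 UMIs per barcode 611 and 2252. When the rule was applied to barcodes thinned at random to 2000 UMIs it kept 1395 and 2352 cells.

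UMIs were summed over the germ cells of each time and expressed as CPM, a gene's UMIs per 1000000 UMIs of the sum. A gene was called higher or lower when the whole exact binomial 95% interval of its CPM ratio, 144 h over 0 h, lay beyond 2-fold. Of 15256 genes with at least 20 UMIs in both sums together, 1566 (10.3%) were called higher and 1718 (11.3%) lower. Higher genes were thus 47.7% of the calls. That share was 36.2% when mitochondrial and ribosomal protein genes were left out of the totals and 32.4% when the sums were scaled to the median ratio of well-counted genes. The median log2 ratio over all genes entered was 0.17. Ribosomal protein genes made up 26.5% of germ cell UMIs at 0 h and 18.1% at 144 h, and list medians below are to be read beside that shift of the whole scale.

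**Figure D1:**
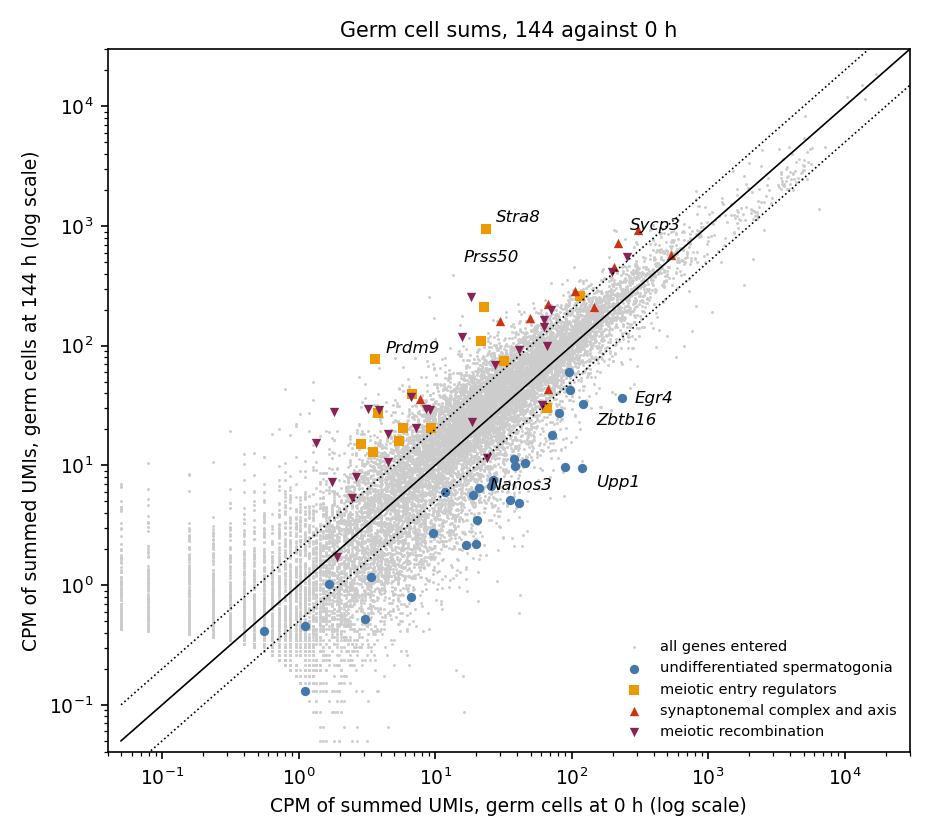
Each point is 1 gene, with its CPM in the germ cell sum at 0 h on the x axis and at 144 h on the y axis, both on log scales, with genes under 0.05 CPM drawn at that level. Dotted lines mark 2-fold differences, the undifferentiated spermatogonial genes lie below the diagonal and most meiotic genes above it, with Stra8 farthest from it among the labelled genes.

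Genes of undifferentiated spermatogonia were lower at 144 h almost throughout. Of 29 listed genes, 23 were called lower, 6 lay between and 0 were called higher, with a median log2 ratio of -1.94, where 11.3% of all genes were called lower. Zbtb16, the transcriptional repressor PLZF that maintains spermatogonial stem cells, had 122 CPM at 0 h and 32.5 CPM at 144 h, a ratio of 0.266 (95% interval 0.248 to 0.286). Gfra1 and Ret encode the 2 parts of the receptor for the niche factor GDNF. Gfra1 had 21.1 CPM at 0 h and 6.42 CPM at 144 h, and Ret 37.8 CPM at 0 h and 11.3 CPM at 144 h. Both parts of the receptor were thus at about the same ratio, 0.305 (95% interval 0.258 to 0.361) and 0.298 (95% interval 0.263 to 0.338).

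The transcription factors and RNA-binding proteins of this state were lower to different extents. Neurog3, a transcription factor of cells on the way to differentiation, had 20.0 CPM at 0 h and 2.18 CPM at 144 h. Nanos3, an RNA-binding repressor that keeps germ cells from differentiating, had 88.8 CPM at 0 h and 9.78 CPM at 144 h, a ratio of 0.110 (95% interval 0.0985 to 0.123), and its relative Nanos2 had 6.65 CPM at 0 h and 0.800 CPM at 144 h. Both NANOS genes were therefore at close to the same ratio, although Nanos2 was the scarcer at both times. Id4, a marker of the stem cell fraction, had 45.9 CPM at 0 h and 10.5 CPM at 144 h, and Lin28a, which blocks the maturation of let-7 miRNAs, 71.5 CPM at 0 h and 17.9 CPM at 144 h. Foxo1, whose protein is regulated largely by its place in the cell, lay between at a ratio of 0.624 (95% interval 0.583 to 0.668). Etv4, Eomes, T, Cdh1 and Pdx1 also lay between, the last 4 of them with under 4 CPM at both times.

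The 15 lowest genes by the naming rule (at least 50 CPM and 50 UMIs in the higher library, where the CPM is also at least 2 times that of the somatic barcodes, those within the same depth and mitochondrial limits with over 1 UMI of the 3 somatic genes, ranked by the interval bound nearest 1) included 3 of that list. Upp1, a uridine phosphorylase of pyrimidine salvage, had 118 CPM at 0 h and 9.54 CPM at 144 h, the lowest ratio named at 0.0805 (95% interval 0.0722 to 0.0896). Egr4, a zinc finger transcription factor, had 233 CPM at 0 h and 36.3 CPM at 144 h, a ratio of 0.156 (95% interval 0.147 to 0.166). Nanos3 was the third. Outside the list, Foxf1, a forkhead transcription factor, had 118 CPM at 0 h and 10.9 CPM at 144 h. Trim71, the RNA-binding LIN41 protein of stem and progenitor cells, had 208 CPM at 0 h and 39.2 CPM at 144 h, a ratio of 0.189 (95% interval 0.178 to 0.201). Rhox10, an X-linked homeobox gene needed to establish the spermatogonial stem cell pool, had 65.2 CPM at 0 h and a ratio of 0.245 (95% interval 0.221 to 0.271). Morc1, which represses transposons in the male germ line, had 63.1 CPM at 0 h and 15.1 CPM at 144 h.

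The remaining named lower genes have varied roles. Pdk1, a kinase that restrains entry of pyruvate into mitochondria, had 68.9 CPM at 0 h and 13.3 CPM at 144 h. Rragd, a Rag GTPase that signals amino acids to mTORC1, had 90.3 CPM at 0 h and 17.0 CPM at 144 h, and Rhebl1, a relative of the mTORC1 activator RHEB, 55.9 CPM at 0 h and 12.4 CPM at 144 h. Mgmt, which removes alkyl groups from guanine in DNA, had 108 CPM at 0 h and 17.4 CPM at 144 h. These 4 genes lay between ratios of 0.161 and 0.221. Afp, the fetal serum protein alpha-fetoprotein, had 164 CPM at 0 h and 30.6 CPM at 144 h. The rest were Phlda2 (0.152), Gyltl1b (0.206) and Efcab10 (0.232), whose values give the CPM ratio. Of the 15, Rragd and Pdk1 were the ones with more CPM at 144 h than at 0 h in somatic barcodes, where Pdk1 had 34.3 CPM at 0 h and 52.9 CPM at 144 h, and Rragd 33.7 and 39.9 CPM.

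RNA of several other cell types was also lower in these sums. The cell rule allowed 1 somatic UMI at any depth, so it was stricter for the deeper cells of 144 h (median 14365 UMIs against 4556). Its part in these lower values was not tested. With the rule applied to thinned barcodes 1514 genes were called lower, 1285 of them among the 1718 of the main sums. Within the germ cells, Sertoli cell markers summed to 1523 CPM at 0 h and 583 CPM at 144 h, with 14 of 19 counted lower, 2 higher and 3 between, and somatic barcodes had 11894 and 16712 CPM. Leydig cell markers summed to 149 and 26.1 CPM (7 of 9 lower), stromal markers to 219.9 and 57.4 CPM (6 of 7 lower) and peritubular myoid markers to 145 and 47.6 CPM (5 of 7 lower). Red blood cell genes summed to 4365 and 953 CPM, with 4 of 5 lower. No gene of these 5 lists stood at 0 in either sum. The highest of them at 0 h was Hbb-bs, a beta globin, with 2115 CPM. Over all genes 10.3% were called higher and 11.3% lower. Beside those shares, the endothelial, macrophage and lymphocyte lists are too short for their calls to show a direction. Endothelial markers summed to 38.5 and 64.0 CPM (1 of 7 higher, 0 lower), macrophage markers to 55.4 and 46.6 CPM (0 of 10 called) and lymphocyte markers to 6.41 and 22.2 CPM (1 higher and 1 lower of 4 counted). Immediate early genes that cell dissociation induces summed to 977 and 363 CPM, with 10 of 16 lower. The part of any of these in the lower calls was not tested. The named lower genes were each more abundant in germ cells than in somatic barcodes at 0 h, by the naming rule itself.

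Genes of differentiating spermatogonia moved both ways. Of 15 listed, 7 were called higher, 3 lower and 5 between, with a median log2 ratio of 0.96, beside 10.3% of all genes called higher. Kit, the receptor of stem cell factor, had 8.71 CPM at 0 h and 74.1 CPM at 144 h, a ratio of 8.51 (95% interval 7.04 to 10.4). After thinning, Kit was detected in 1.03% of germ cells at 0 h, no more than the 1.17% of somatic barcodes with under 2 germ cell markers, and in 271 of 2462 germ cells (9.80 to 12.3% by the exact 95% interval) against 1.41% of such barcodes at 144 h. Dmrtb1, the DMRT6 protein that coordinates the change from mitosis to meiosis, had 7.12 CPM at 0 h and 79.0 CPM at 144 h. Sohlh2, a basic helix-loop-helix factor needed for differentiation, had 18.5 CPM at 0 h and 56.2 CPM at 144 h, while its partner Sohlh1 was lower, with 261 CPM at 0 h and 110.0 CPM at 144 h. The partners therefore had opposite calls, with ratios of 3.03 and 0.422. Ccnd2, a cyclin of spermatogonia, was also lower with 208 CPM at 0 h and 87.7 CPM at 144 h, as was Ddit4, an inhibitor of mTORC1, with 69.6 CPM at 0 h and 5.32 CPM at 144 h. Thinned germ cells held Ccnd2 in 26.1% and 6.74%, and somatic barcodes with under 2 germ cell markers in 47.5% and 23.4%. Rhox13 and Esx1, both X-linked homeobox genes of germ cells, had ratios of 5.54 (95% interval 5.07 to 6.06) and 9.61 (95% interval 8.54 to 10.8).

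Stra8, the retinoic acid-induced factor that starts the meiotic programme, had the highest ratio of all named genes. Its level was 23.5 CPM at 0 h and 949 CPM at 144 h, a ratio of 40.4 (95% interval 36.0 to 45.4). After thinning to 2000 UMIs, Stra8 was detected in 66 of 1365 germ cells at 0 h (4.84%, exact 95% interval 3.76 to 6.11%) and in 1778 of 2462 at 144 h (72.2%, 70.4 to 74.0%). In the somatic barcodes with under 2 germ cell markers, a reference chosen after seeing the data, the shares were 0.0925% and 2.52%. Germ cells thus stood above that background at both times, and the 2 intervals did not overlap. In the sums of all somatic barcodes Stra8 had 4.26 CPM at 0 h and 185 CPM at 144 h, a ratio of 43.5. Of the 15 named higher genes, 14 were also called higher in somatic barcodes and Fabp9 lay between, and Prss50 had 0.781 and 50.8 CPM there. Of those somatic barcodes, 1002 of 4245 at 0 h and 861 of 2848 at 144 h held at least 2 germ cell markers. The part of germ cell RNA in the somatic ratios was not tested. By the same calls, 10 of the 15 named lower genes were lower in somatic barcodes and 5 lay between.

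Of 14 meiotic entry regulators counted, leaving out the rule's markers Dazl and Mael, 12 were called higher, 1 lower and 1 between, with a median log2 ratio of 2.11. Among all genes 10.3% were called higher and 11.3% lower. Gm4969, the gene of the STRA8 partner MEIOSIN, had 2.85 CPM at 0 h and 15.2 CPM at 144 h, a ratio of 5.32 (95% interval 3.81 to 7.66). Meioc and Ythdc2, whose proteins act together on RNA as cells leave the mitotic programme, had 23.0 CPM (0 h) and 210.2 CPM (144 h), and 21.5 CPM (0 h) and 109 CPM (144 h), respectively. Their shared partner Rbm46 had 115 CPM at 0 h and 262 CPM at 144 h. All 3 RNA-binding partners were called higher, with Meioc the most at 9.16 (95% interval 8.15 to 10.3). Prdm9, the histone methyltransferase that marks recombination hotspots, had 3.64 CPM at 0 h and 77.4 CPM at 144 h, a ratio of 21.3 (95% interval 15.9 to 29.1). Zglp1, a zinc finger factor known from the oogenic programme, had 31.8 CPM at 0 h and 74.4 CPM at 144 h. The lower one was Tcfl5, a factor of later spermatocytes, with 66.6 CPM at 0 h and 30.0 CPM at 144 h, and Ccnb3, a cyclin, lay between at 2.18 (95% interval 1.80 to 2.67).

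The promoter windows of 6 genes are printed because these results turn on them: Stra8 as the highest named gene, Prss50, M1ap and Meioc as other named higher genes, Sycp3 as a synaptonemal gene, and Upp1 as the lowest named gene. They run from 250 bases before to 50 bases after the gene's start, 5′ to 3′ on the gene's strand, from RefSeq on GRCm38.p6. Capitals mark the motifs searched on both strands, none of them overlapping in these windows: CNCCTCAG (reported for STRA8 with MEIOSIN), CACGTG (an E-box), GCGGGAA (an E2F motif) and a direct repeat of the retinoic acid receptor half-site AGGTCA with 5 bases between.
Stra8 (chr6:34920698-34920997, plus strand): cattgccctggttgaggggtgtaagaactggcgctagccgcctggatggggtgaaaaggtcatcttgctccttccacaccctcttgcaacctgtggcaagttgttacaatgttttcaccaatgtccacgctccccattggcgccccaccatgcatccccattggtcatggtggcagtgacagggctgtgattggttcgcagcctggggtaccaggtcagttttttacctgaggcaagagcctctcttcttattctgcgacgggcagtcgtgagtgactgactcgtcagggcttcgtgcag
Prss50 (chr9:110857714-110858013, plus strand): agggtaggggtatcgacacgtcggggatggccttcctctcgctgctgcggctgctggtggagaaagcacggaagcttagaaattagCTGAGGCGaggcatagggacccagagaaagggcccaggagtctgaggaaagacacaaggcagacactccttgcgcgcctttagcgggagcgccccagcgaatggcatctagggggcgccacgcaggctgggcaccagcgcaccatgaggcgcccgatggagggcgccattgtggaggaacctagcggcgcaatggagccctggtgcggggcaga
M1ap (chr6:82946672-82946971, plus strand): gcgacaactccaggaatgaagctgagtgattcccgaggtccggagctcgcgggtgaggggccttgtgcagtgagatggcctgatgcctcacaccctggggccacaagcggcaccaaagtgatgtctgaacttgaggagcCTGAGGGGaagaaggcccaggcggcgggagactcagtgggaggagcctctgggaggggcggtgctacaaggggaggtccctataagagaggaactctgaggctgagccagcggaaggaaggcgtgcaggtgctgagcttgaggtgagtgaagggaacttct
Meioc (chr11:102665335-102665634, plus strand): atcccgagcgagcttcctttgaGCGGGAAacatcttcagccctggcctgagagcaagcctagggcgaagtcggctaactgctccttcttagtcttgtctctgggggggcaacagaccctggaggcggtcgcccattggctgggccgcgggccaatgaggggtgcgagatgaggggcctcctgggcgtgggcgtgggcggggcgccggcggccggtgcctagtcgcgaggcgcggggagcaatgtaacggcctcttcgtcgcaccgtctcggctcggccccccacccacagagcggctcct
Sycp3 (chr10:88459337-88459636, plus strand): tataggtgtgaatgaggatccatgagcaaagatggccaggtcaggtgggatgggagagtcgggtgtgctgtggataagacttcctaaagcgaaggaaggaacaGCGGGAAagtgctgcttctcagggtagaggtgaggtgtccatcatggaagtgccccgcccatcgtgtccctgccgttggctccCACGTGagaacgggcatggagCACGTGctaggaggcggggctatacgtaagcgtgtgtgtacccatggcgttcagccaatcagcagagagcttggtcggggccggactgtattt
Upp1 (chr11:9117758-9118057, plus strand): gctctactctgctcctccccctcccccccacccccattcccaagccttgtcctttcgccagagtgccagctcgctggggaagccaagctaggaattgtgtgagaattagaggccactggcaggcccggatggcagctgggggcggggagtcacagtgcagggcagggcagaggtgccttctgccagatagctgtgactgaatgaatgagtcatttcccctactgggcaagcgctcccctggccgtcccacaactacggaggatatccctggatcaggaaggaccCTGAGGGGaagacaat

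CNCCTCAG began at base 87 of the Prss50 window, base 140 of M1ap and base 285 of Upp1, counted from the window's 5′ end. Sycp3 held CACGTG at bases 187 and 208 and GCGGGAA at base 104, and Meioc held GCGGGAA at base 23. The Stra8 window held none of the 4 motifs. Over all 27025 windows of the table, 7.97% held CNCCTCAG, 7.24% CACGTG and 4.66% GCGGGAA, while the spaced repeat was in 2. A match describes letters only. Shares over the genes called higher or lower, or over the named genes, are not given, because windows were matched for 11780 of the 15256 genes entered (77.2%), under the 80% needed, which leaves that check void.

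The machinery of meiotic chromosomes was higher as a group. Of 11 genes of the synaptonemal complex and chromosome axis, 8 were called higher, 3 between and 0 lower (median log2 ratio 1.60). Among all genes entered 10.3% were called higher. Sycp1, the transverse filament of the complex, had 306 CPM at 0 h and 929.6 CPM at 144 h, a ratio of 3.03 (95% interval 2.94 to 3.14). Sycp3 and Sycp2, of its lateral elements, had 218 CPM (0 h) and 723 CPM (144 h), and 29.9 CPM (0 h) and 162 CPM (144 h), respectively. The ratios of all 3 were well under those of Stra8 and Prdm9, and Sycp1 and Sycp3 were already well detected at 0 h. The HORMA domain genes Hormad1 and Hormad2, which mark unsynapsed axes, had ratios of 3.48 (95% interval 3.20 to 3.78) and 4.62 (95% interval 3.77 to 5.72). Syce3, Tex12 and Fkbp6 lay between, Fkbp6 with 535 CPM at 0 h and 578 CPM at 144 h.

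Of 27 recombination genes present in the files, 19 were called higher, 8 between and 0 lower (median log2 ratio 1.49). The share called higher over all genes was 10.3%. Spo11, which makes the double-strand breaks, was scarce at both times, with 2.61 CPM at 0 h and 8.05 CPM at 144 h. Mei4 and Ccdc36, which help to make the breaks, had 8.63 CPM (0 h) and 29.5 CPM (144 h), and 6.65 CPM (0 h) and 37.3 CPM (144 h), respectively. All 3 of these break-forming genes were called higher. Dmc1, the meiosis-specific strand exchange protein, had 15.7 CPM at 0 h and 118 CPM at 144 h, a ratio of 7.50 (95% interval 6.51 to 8.69). Meiob, which binds single-stranded DNA, had 1.35 CPM at 0 h and 15.3 CPM at 144 h, while its partner Spata22 lay between with 1.90 CPM at 0 h and 1.71 CPM at 144 h. Brca2, which loads recombinase onto broken DNA, had 63.1 CPM at 0 h and 165 CPM at 144 h. M1ap, known from male meiosis, had 18.4 CPM at 0 h and 253 CPM at 144 h, a ratio of 13.8 (95% interval 12.1 to 15.8).

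Cohesins, which hold sister chromatids together, split by kind. The meiotic subunits Smc1b (213 CPM at 0 h and 912 CPM at 144 h), Rec8 (6.73 CPM at 0 h and 39.9 CPM at 144 h), Rad21l (5.38 CPM at 0 h and 22.9 CPM at 144 h) and Stag3 (57.0 CPM at 0 h and 189 CPM at 144 h) were all called higher. The 5 general subunits Smc1a, Smc3, Rad21, Stag1 and Stag2 all lay between, from a ratio of 0.810 for Rad21 to 1.47 for Stag1.

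**Figure D2:**
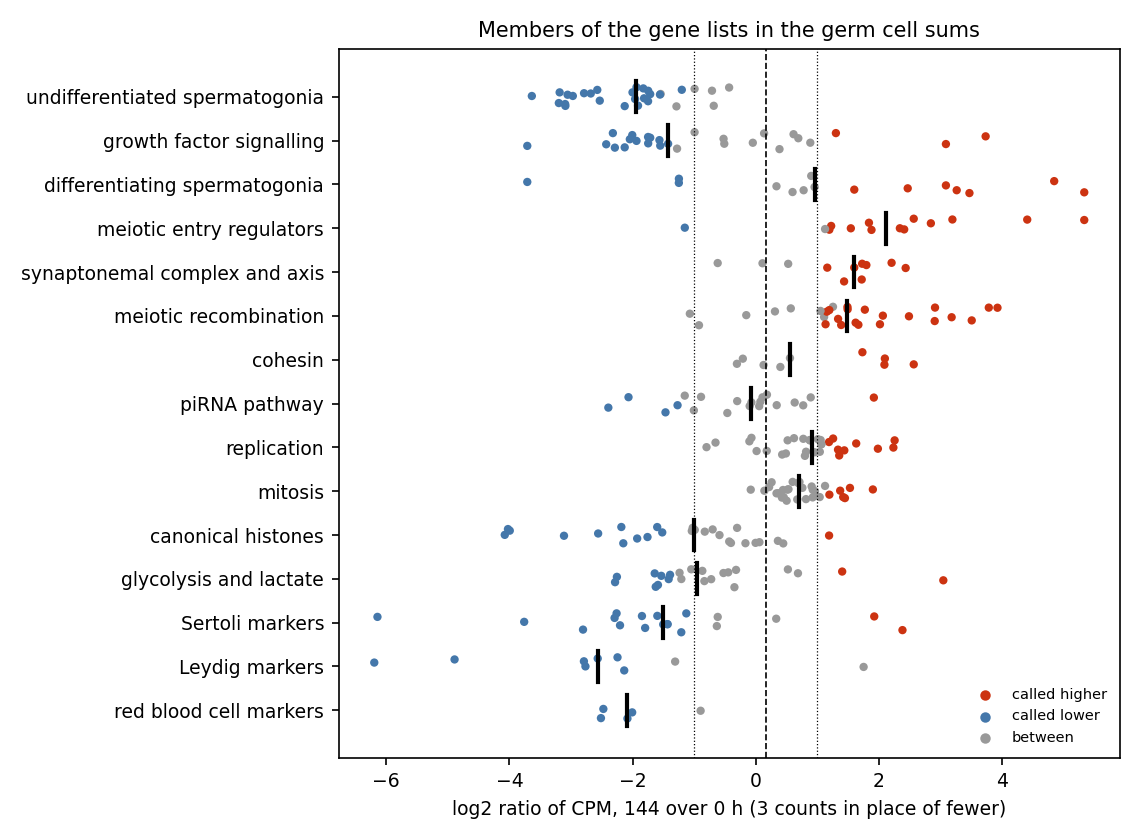
Each point is 1 listed gene with at least 20 UMIs, placed by its log2 ratio of CPM at 144 over 0 h, in red where called higher, blue where called lower and grey between. The black bar is the list's median and the dashed line the median of all genes entered (0.17), so the 3 meiotic lists sit to its right and the undifferentiated, Sertoli, Leydig and red blood cell lists to its left.

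The other named higher genes had the following levels. Prss50, a testis protease-like gene, had 13.6 CPM at 0 h and 392 CPM at 144 h, a ratio of 28.8 (95% interval 24.8 to 33.7). Ly6k, which encodes a membrane-anchored protein needed for sperm migration, had 9.02 CPM at 0 h and 255 CPM at 144 h. Ybx2, which stores mRNA in spermatocytes and spermatids, had 2.77 CPM at 0 h and 54.4 CPM at 144 h, a ratio of 19.6 (95% interval 14.1 to 28.3). Spdya, an activator of CDK2 at telomeres in meiosis, had 3.88 CPM at 0 h and 65.4 CPM at 144 h. Fabp9, a fatty acid-binding protein of the testis, had 5.07 CPM at 0 h and 79.3 CPM at 144 h. In 144 h cells with no Stra8 UMI after thinning, 1 or 2, and at least 3, Fabp9 had 214, 5.37 and 2.44 CPM. Ugt8a, which makes the galactolipids of spermatocytes, had 5.78 CPM at 0 h and 66.3 CPM at 144 h, and Baz1a, a chromatin remodelling subunit, 15.2 CPM at 0 h and 148 CPM at 144 h. Baz1a was also present in somatic barcodes, with 19.4 and 48.7 CPM. For Fabp9 the ratio of 15.7 was 4.00 without the barcodes of over 40000 UMIs (81 at 0 h and 206 at 144 h), and for Ybx2 it was 9.73.

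The later libraries, by the same cell rule, separated the named genes by course. Stra8 had 78.3, 36.6 and 20.0 CPM at 350.4, 556.8 and 763.2 h, so the 144 h level was its highest of the 5. Prss50, Prdm9, M1ap, Ccne2, Ugt8a, Esx1 and Kit were likewise highest at 144 h. Fabp9 instead had 1964, 3558 and 3851 CPM, Ybx2 779.8, 918 and 761 CPM, and Dmrtb1 133, 776 and 568 CPM. Of the 15 lowest, 14 were below their 144 h level in all later libraries. The exception was Efcab10, a gene of an EF-hand protein, with 64.4, 290.3 and 359 CPM. Those libraries held 2850, 6845 and 6237 germ cells by the rule.

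**Figure D3:**
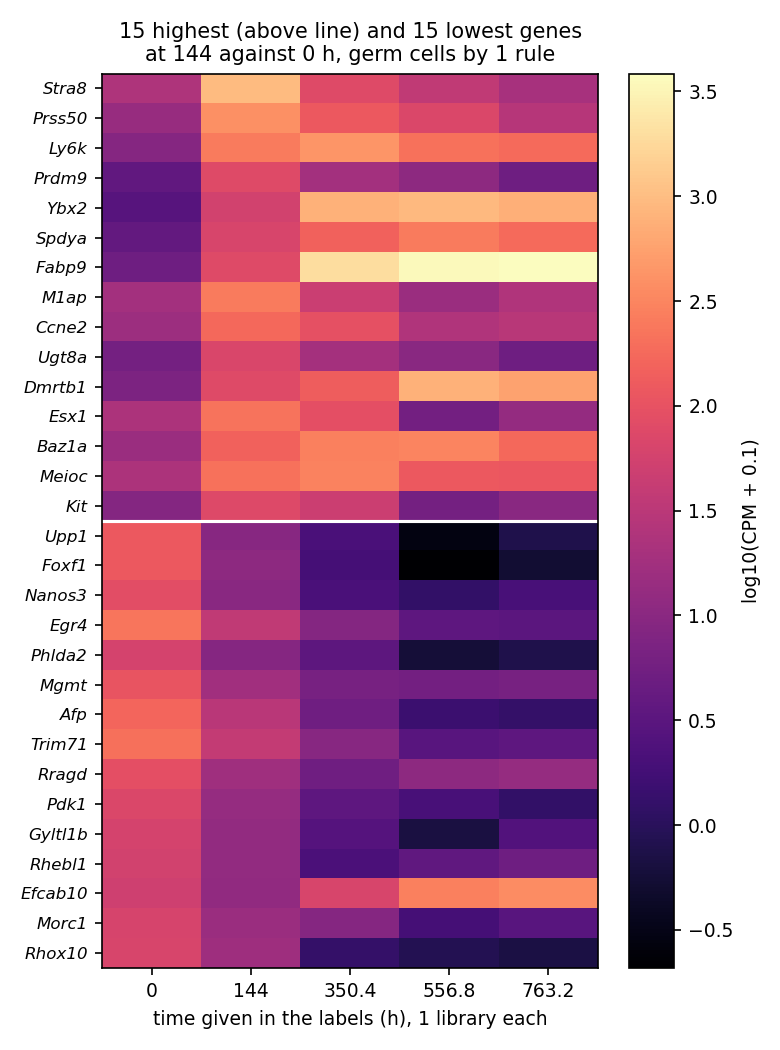
The colour gives log10(CPM + 0.1) of each named gene in the germ cell sums of the 5 libraries, with the 15 highest genes at 144 against 0 h above the white line and the 15 lowest below it. Stra8, Prss50 and Prdm9 are brightest at 144 h, Ybx2 and Fabp9 in the later libraries, and the lower genes are brightest at 0 h apart from Efcab10.

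Pachytene genes, which belong to a later stage of meiosis, were in part higher. Of 18 counted, 8 were called higher and 10 between, beside 10.3% of all genes called higher. Ldhc, the lactate dehydrogenase of spermatocytes, had 6.33 CPM at 0 h and 52.3 CPM at 144 h, and Hspa2, the chaperone of their synaptonemal complex, 14.9 CPM at 0 h and 91.0 CPM at 144 h. Piwil1, the piRNA-binding protein of pachytene cells, had 7.44 CPM at 0 h and 28.1 CPM at 144 h. Those 3 were called higher, whereas Hist1h1t, the testis-specific linker histone, lay between with 4.75 CPM at 0 h and 5.23 CPM at 144 h and Pgk2, a testis glycolytic enzyme, stood under 1 CPM at both times. In 144 h cells with no Stra8 UMI after thinning, 1 or 2, and at least 3, Ldhc had 144, 1.01 and 0.679 CPM. Piwil1 had 67.2, 7.72 and 4.82 CPM in that order, and Hspa2 183, 39.3 and 39.9 CPM. The higher sums of Ldhc and Piwil1 thus lay mostly in the cells without Stra8. The protamine and transition protein genes Prm1, Prm2 and Tnp2, which pack sperm DNA, had 0 UMIs in both sums. For each of them that allows up to 0.237 CPM at 0 h and 0.0649 CPM at 144 h. Tnp1, the other transition protein gene, was present, with 12.5 CPM at 0 h. At 144 h it had 7.23, 3.69 and 1.36 CPM in the same order of Stra8 UMIs.

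The piRNA pathway silences transposons in germ cells. Of 20 genes counted, 1 was called higher, 4 lower and 15 between, with a median log2 ratio of -0.08, where 10.3% of all genes were higher, 11.3% lower and 78.5% between. The share between was thus near that of all genes. Besides Piwil1 as the higher one, the lower genes were Piwil4, the nuclear partner of fetal and early spermatogonial silencing, with 20.9 CPM at 0 h and 3.98 CPM at 144 h, Tdrd5 with 48.4 CPM at 0 h and 20.1 CPM at 144 h, Pnldc1, which trims piRNA ends, with 14.6 CPM at 0 h and 5.28 CPM at 144 h, and Morc1. Piwil2, which acts throughout these stages, lay between with 79.3 CPM at 0 h and 75.6 CPM at 144 h. Among 12 DNA methylation genes, Dnmt3l, the cofactor of new methylation, was called lower with 6.17 CPM at 0 h and 0.411 CPM at 144 h. Gadd45b, a stress-induced gene, was called higher with 14.6 CPM at 0 h and 46.1 CPM at 144 h. The other 10 genes lay between, and these counts are near the shares of all genes. After thinning, Gadd45b was found in 3.15% and 8.45% of germ cells. The shares in somatic barcodes with under 2 germ cell markers were 3.79% and 19.6%.

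Genes of DNA replication were higher or between. Of 30, 9 were called higher, 21 between and 0 lower (median log2 ratio 0.92), where 10.3% of all genes were called higher and 78.5% between. Cdc6, which loads the replicative helicase, had 10.1 CPM at 0 h and 47.7 CPM at 144 h, and Mcm5, a helicase subunit, 70.6 CPM at 0 h and 219 CPM at 144 h. Rrm2, a subunit of the enzyme that makes deoxynucleotides, had 24.3 CPM at 0 h and 116 CPM at 144 h. Of 30 mitosis genes, 6 were called higher and 24 between, and the share between is near that of all genes. Among the higher ones were Mki67, a marker of cycling cells, with 63.8 CPM at 0 h and 174 CPM at 144 h and Top2a, the topoisomerase that untangles chromosomes, with 189 CPM at 0 h and 547 CPM at 144 h. Without the barcodes of over 40000 UMIs, 14 replication genes were called higher. Sums of these lists in somatic barcodes were 1506 and 1420.2 CPM for replication and 1862 and 1418 CPM for mitosis.

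Cyclins and their inhibitors gave some of the widest ratios in both directions. Ccne2, a cyclin that drives entry into S phase, had 15.8 CPM at 0 h and 178 CPM at 144 h, a ratio of 11.3 (95% interval 9.80 to 13.1). Cdkn1b, the inhibitor p27 that holds cells out of S phase, had 46.9 CPM at 0 h and 2.83 CPM at 144 h, a ratio of 0.0604 (95% interval 0.0496 to 0.0731). Thinned germ cells held Ccne2 in 3.59% and 34.3% and Cdkn1b in 11.9% and 0.609%. For Cdkn1b the somatic barcodes with under 2 germ cell markers gave 12.6% and 7.85%, so its germ cell share at 0 h did not exceed theirs. Somatic cells may hold this RNA as their own, so their share is no measure of free RNA here. Ccnd1, a cyclin of G1, was higher with 64.7 CPM at 0 h and 179.6 CPM at 144 h, while its kinase Cdk4 was lower with 257 CPM at 0 h and 120.0 CPM at 144 h. The inhibitors Cdkn2c and Cdkn2d, both known from spermatocytes, were higher, with 6.49 CPM (0 h) and 29.6 CPM (144 h), and 16.4 CPM (0 h) and 56.7 CPM (144 h), respectively.

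Canonical histone genes, whose mRNA mostly lacks a poly(A) tail, were lower in 11 of 26 counted, higher in 1 and between in 14 (median log2 ratio -1.01). In the germ cell sums 11.3% of all genes were called lower and 10.3% higher. Hist1h1b, a linker histone, had 88.2 CPM at 0 h and 5.54 CPM at 144 h, and Hist1h4d 229 CPM at 0 h and 38.9 CPM at 144 h. The higher one was Hist1h2aa, a testis histone, with 42.4 CPM at 0 h and 96.9 CPM at 144 h. In somatic barcodes, where 3.24% of all genes were called lower and 5.62% higher, 18 of the histone genes were called lower and 1 higher, with sums of 1798 and 332 CPM. Lower histone values were thus found in both kinds of barcode. Of the variants, H2afy and H2afy2, the macroH2A genes, were lower with 280.1 CPM (0 h) and 96.2 CPM (144 h), and 66.8 CPM (0 h) and 14.2 CPM (144 h), respectively, and the linker genes H1fx and H1f0 were higher with 64.3 CPM (0 h) and 240.2 CPM (144 h), and 29.7 CPM (0 h) and 82.1 CPM (144 h), respectively.

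Growth factor signalling genes were called lower in 14 of 27, higher in 3 and between in 10 (median log2 ratio -1.42). Among all genes 11.3% were called lower and 10.3% higher. The list shares 6 genes with the undifferentiated list, and of the other 21 genes 9 were called lower, 3 higher and 9 between. Spry4 and Dusp4, feedback inhibitors of MAP kinase signalling, had 7.68 CPM (0 h) and 1.43 CPM (144 h), and 2.37 CPM (0 h) and 0.476 CPM (144 h), respectively. Egr1, an immediate early gene that also belongs to the dissociation list, had 106 CPM at 0 h and 25.6 CPM at 144 h. Besides Kit, the higher genes were Fgfr3, a fibroblast growth factor receptor, with 0.791 CPM at 0 h and 10.5 CPM at 144 h, and Rps6kb1, the S6 kinase downstream of mTORC1, with 31.3 CPM at 0 h and 77.1 CPM at 144 h. With every barcode thinned to 2000 UMIs before summing, 8 of the 27 were called lower.

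Of 19 retinoid genes, 3 were called higher, 2 lower and 14 between, close to the shares of all genes (10.3%, 11.3% and 78.5%), so the counts show nothing about the list. Crabp1, a cytoplasmic carrier of retinoic acid, had 127 CPM at 0 h and 355 CPM at 144 h, and Rdh10, which oxidizes retinol, 3.56 CPM at 0 h and 11.5 CPM at 144 h. Aldh1a1, a retinaldehyde dehydrogenase also abundant in somatic cells, was lower with 81.9 CPM at 0 h and 20.0 CPM at 144 h. The receptors Rara and Rarg lay between with 25.1 CPM (0 h) and 19.3 CPM (144 h), and 23.5 CPM (0 h) and 17.6 CPM (144 h), respectively. Lrat, which stores retinol as esters, had no UMI at 0 h and 0.692 CPM at 144 h.

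Glycolysis was lower in part, with 8 of 22 genes called lower, 2 higher and 12 between (median log2 ratio -0.96). Of all genes, 11.3% were called lower, 10.3% higher and 78.5% between. Eno1, an enolase, had 198 CPM at 0 h and 40.7 CPM at 144 h, a ratio of 0.205 (95% interval 0.193 to 0.218), and Aldoa, an aldolase, 275 CPM at 0 h and 95.1 CPM at 144 h. The lactate dehydrogenases Ldha and Ldhb had 48.5 CPM (0 h) and 15.6 CPM (144 h), and 123 CPM (0 h) and 46.2 CPM (144 h), respectively. The 2 higher genes were Ldhc and Slc16a1, a transporter of lactate, the latter with 21.7 CPM at 0 h and 57.4 CPM at 144 h. Without the barcodes of over 40000 UMIs, 13 of the genes were called lower. Of 20 respiratory chain genes, 1 was called higher, Uqcrc2 with 95.8 CPM at 0 h and 262 CPM at 144 h, and 19 lay between.

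RNA-binding and translational regulators were higher in 8 of 24 genes counted, lower in 4 and between in 12. The shares of all genes were 10.3%, 11.3% and 78.5% in that order. Beside those already given, Cpeb1, which controls poly(A) tails, had 19.5 CPM at 0 h and 72.2 CPM at 144 h, and Elavl2, which stabilizes mRNA, 61.2 CPM at 0 h and 174 CPM at 144 h. Dnd1, a partner of the NANOS proteins, was lower with 137 CPM at 0 h and 63.3 CPM at 144 h. Of 20 repressors of germ line genes, 4 were higher, 2 lower and 14 between, and the counts of lower and between are near the shares of all genes (11.3% and 78.5%). E2f6 and Pcgf6, subunits of a Polycomb complex that silences meiotic genes, were the lower ones with 46.0 CPM (0 h) and 20.7 CPM (144 h), and 53.7 CPM (0 h) and 22.9 CPM (144 h), respectively. L3mbtl2, of the same complex, ran the other way from 26.2 CPM at 0 h. In 144 h cells with no Stra8 UMI after thinning, 1 or 2, and at least 3, it had 59.6, 61.9 and 68.9 CPM. The 2 lower genes thus do not stand for their whole complex. Ezh2 and Suz12, of the other Polycomb complex, were higher with 54.6 CPM (0 h) and 144 CPM (144 h), and 76.5 CPM (0 h) and 176 CPM (144 h), respectively.

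The same genes were followed cell by cell after thinning. Prss50 was detected in 1.69% of germ cells at 0 h and 52.5% at 144 h, and Prdm9 in 0.733% and 16.8%. Sycp3 was detected in 33.2% and 69.5%, beside a summed ratio of 3.31. Zbtb16 was detected in 17.2% and 3.94%, Egr4 in 35.1% and 4.14%, and Upp1 in 21.9% and 1.26%. In somatic barcodes with under 2 germ cell markers, whose median depth was the same 2000 UMIs, Zbtb16 was found in 1.33% and 1.06%, Egr4 in 1.76% and 0.151%, and Upp1 in 0.987% and 0.201%. The germ cell shares exceeded this background for these 3 genes at both times. Dnmt3l was found in 13 of 1365 germ cells at 0 h and in 0 of 2462 at 144 h, with an exact 95% interval of 0 to 0.150%.

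**Figure D4:**
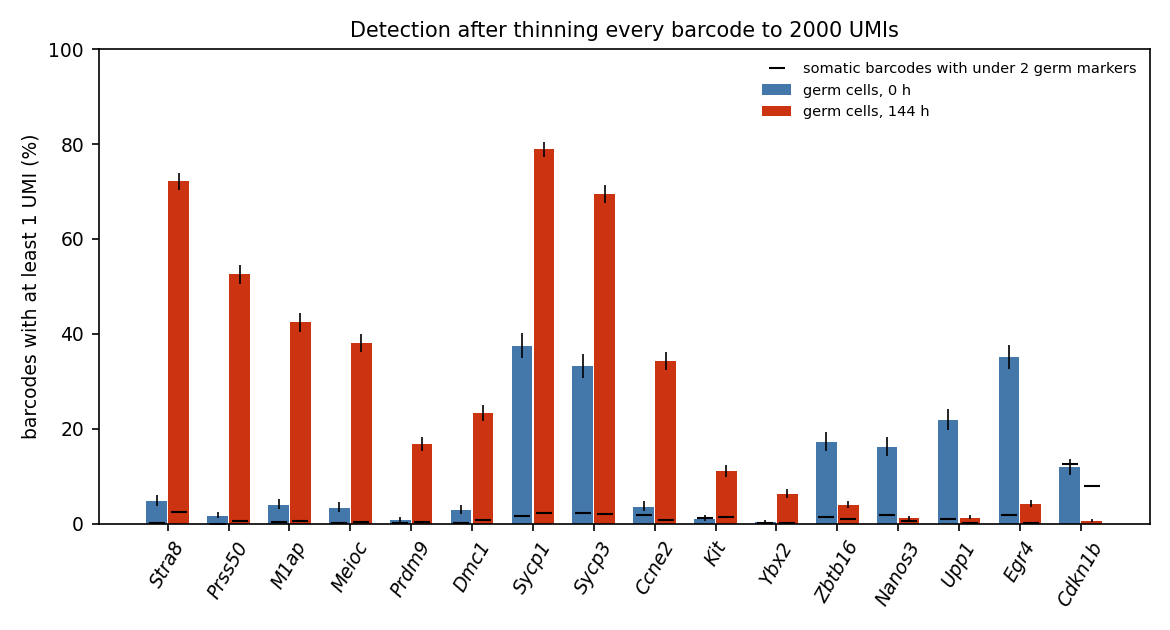
Bars give the percent of germ cell barcodes with at least 1 UMI of each gene at 0 h (blue) and 144 h (red), each barcode thinned to 2000 UMIs, with exact 95% binomial intervals. Black dashes give the share in somatic barcodes with under 2 germ cell markers, and the red bars stand above the blue ones from Stra8 to Ybx2 and below them from Zbtb16 to Cdkn1b.

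The summed UMIs of the undifferentiated list had a median of 2 per thinned germ cell at 0 h (quartiles 1 and 3) and 0 at 144 h (quartiles 0 and 1). Germ cells with none of them were 14.6% at 0 h and 73.9% at 144 h. The 38 synaptonemal and recombination genes had a median of 5 UMIs at 0 h (quartiles 3 and 7) and 14 at 144 h (quartiles 8 and 19). The quartile ranges of the 2 times thus did not overlap for the meiotic genes. In somatic barcodes with under 2 germ cell markers both medians were 0 at both times.

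**Figure D5:**
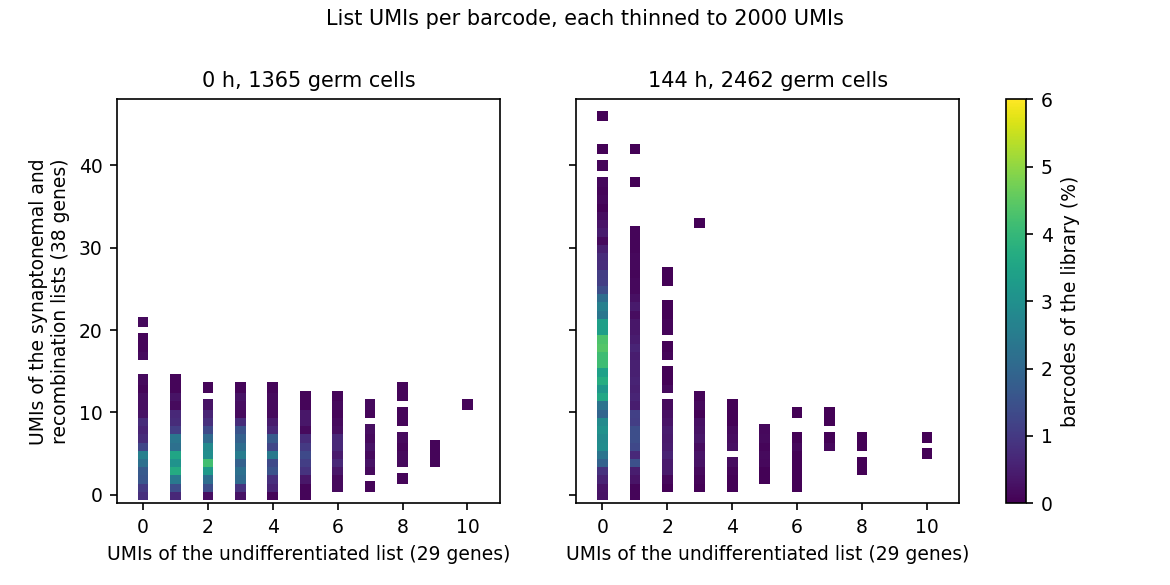
Each square is a combination of undifferentiated-list UMIs (x axis, 29 genes) and synaptonemal and recombination UMIs (y axis, 38 genes) in a germ cell thinned to 2000 UMIs, coloured by the percent of that library's germ cells. At 0 h most cells lie at low meiotic counts with 1 or more undifferentiated UMIs, and at 144 h most lie in the column of 0 undifferentiated UMIs.

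Germ cells were also divided by both readouts at once. Cells with at least 3 undifferentiated UMIs and no Stra8 UMI were 537 at 0 h (39.3%, exact 95% interval 36.7 to 42.0%) and 95 at 144 h (3.86%, 3.13 to 4.70%). Cells with no undifferentiated UMI and at least 1 Stra8 UMI were 18 at 0 h (1.32%, 0.783 to 2.08%) and 1438 at 144 h (58.4%, 56.4 to 60.4%). At 0 h the 65 cells with 1 or 2 Stra8 UMIs and the 1299 with none both had a median of 5 synaptonemal and recombination UMIs. Their means were 6.26 and 4.95 UMIs, and the 1 cell with 3 or more Stra8 UMIs held 21. At 144 h the medians were 7 UMIs without Stra8, 13 with 1 or 2 and 18 with at least 3. The remaining cells fell between, 181 at 0 h and 382 at 144 h of them with neither. Fewer cells of a state and less RNA per cell cannot be told apart in the sums.

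Those 95 and 537 cells, a range set after seeing the data, were also compared with each other. Their sums held 2546475 UMIs at 144 h and 5408564 at 0 h. Of 11607 genes entered, 51 (0.439%) were called higher and 152 (1.31%) lower, against 10.3% and 11.3% over all germ cells. The genes of the undifferentiated list and Stra8 set this range and are not read. Kit had a ratio of 5.10 (95% interval 2.97 to 9.07) and Ybx2 one of 5.43 (95% interval 2.42 to 13.3), and both were called higher. Trim71 at 0.691 (95% interval 0.615 to 0.776), Morc1 at 1.04 (95% interval 0.864 to 1.24), Pdk1 at 1.04 (95% interval 0.877 to 1.23) and Rragd at 1.16 (95% interval 1.00 to 1.35) were not called, though all 4 were among the lowest named genes over all germ cells. Ccnd2, lower over all germ cells, had a ratio of 1.91 (95% interval 1.76 to 2.07) here. Mgmt, Phlda2 and Ddit4 were called lower here too, at 0.353 (95% interval 0.285 to 0.433), 0.276 (95% interval 0.202 to 0.371) and 0.313 (95% interval 0.238 to 0.406). The Sertoli marker Amh had 31.2 CPM at 0 h and 1.57 CPM at 144 h in these cells, and the globin Hbb-bs 1729 and 8.64 CPM. Fewer UMIs than in the whole sums widen these intervals and lower the number of calls.

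Within the 144 h library, germ cells were divided by thinned Stra8 UMIs, again after seeing the data, into 684 with none, 837 with 1 or 2 and 941 with at least 3. Sycp3 had 519.7, 647 and 1029.6 CPM in that order, Dmc1 50.2, 114 and 197 CPM and Prdm9 21.8, 64.4 and 153 CPM. All 3 were higher with each step of Stra8, and for Dmc1 the ratio of the last range to the first was 3.93 (95% interval 3.64 to 4.25). Ccne2 followed the same order at 81.9, 168 and 296 CPM, and Prss50 at 102, 405 and 705 CPM. Zbtb16 ran the other way at 57.8, 23.8 and 12.8 CPM. Ybx2 at 104, 27.1 and 26.7 CPM and Hspa2 at 183, 39.3 and 39.9 CPM were highest in the cells without Stra8, as was Dmrtb1 at 113, 86.7 and 32.7 CPM. Kit was highest in the middle range, at 71.0, 90.9 and 60.6 CPM. Mki67 differed little, with a ratio of 1.08 (95% interval 1.02 to 1.14), at 167, 175 and 181 CPM. All of these cells come from 1 library, so the ranges describe it and are no replicates.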

How the data were processed

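Whole testes of synchronized mice were profiled by droplet single-cell RNA sequencing, 1 library per time. Raw UMI counts per gene and barcode were deposited by the authors, and per the file headers Cell Ranger 3.0.2 made them. From the submitters' processing notes come the names Seurat 4.3.0.1 and mm10, with no role stated. How reads were aligned and cells called is not given in the sources used here. Free RNA and multi-cell droplets were not removed from the main sums.

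Groups came from the sample titles. Counts were summed over germ cells chosen by the marker rule, scaled to CPM and compared by the exact conditional binomial 95% interval of the ratio (SciPy 1.17.1, Python 3.11.15). Log2 ratios use 3 counts in place of fewer. Total UMIs of the sums set the precision. Somatic barcodes passed the same depth and mitochondrial limits with over 1 UMI of the 3 somatic genes. Shares used barcodes thinned to 2000 UMIs, with Clopper-Pearson intervals. The procedure was tested on simulated data.

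Genes were named by the rule in the text, leaving out mitochondrial, ribosomal protein and haemoglobin genes, predicted models and the 8 genes of the cell rule; list members serve as examples. The lists held 32 groups. The cell rule, lists and named-gene rule were chosen with earlier results of these data known. Alternatives changed depth, marker, somatic, doublet (Scrublet in scanpy 1.11.5, score over 0.25), scaling and count limits.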

Additional observations from a re-analysis of the deposited data

Results flagged for a closer look

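Ier3, Trf, Amhr2 and Clu were called lower in the germ cell sums and higher in the somatic sums at 144 against 0 h. The CPM ratio of Ier3, an immediate early gene, was 0.188 in germ cells and 2.25 in somatic barcodes. Trf, transferrin, had 0.278 and 3.07, Amhr2, the receptor of anti-Müllerian hormone, 0.369 and 2.23, and Clu, clusterin, 0.371 and 2.24. The last 3 are Sertoli cell markers of the lists. Over all genes entered, 40 were called lower in germ cells and higher in somatic barcodes and 4 the other way. The difference between the 2 kinds of barcode was not tested, as each time has 1 library.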

How the results depend on the processing

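With 1 library per time, the intervals measure counting error and no other setting stands in for a replicate. No paired analysis was possible because each group has 1 library. Across 15 other settings, 175 of 180 values of the counts stayed within 1.5 times and no named gene's ratio reversed in 450 values, though 102 of those lay outside the interval of the reported ratio. Of 184 detection shares at other depths, 177 lay outside their interval. Scaling to the median ratio gave 1042 genes called higher, against 1566, and 2174 lower, and moved the median log2 ratio of all genes from 0.17 to -0.04. Leaving mitochondrial and ribosomal protein genes out of the totals gave 1160 higher and 2045 lower, with a median of 0.01. With every barcode thinned to 2000 UMIs before summing, 1094 genes were called lower, against 1718, of 11536 entered, and 8 growth factor genes were lower, against 14; fewer UMIs widen the intervals. Without barcodes of over 40000 UMIs, 14 replication genes were higher, against 9, and 13 glycolysis genes lower, against 8; the cause was not tested. Of 30 named ratios, 14 moved by over 1.5 times under at least 1 setting. With thinned barcodes, Prss50 was 62.0, Ugt8a 24.6, Meioc 14.4, Nanos3 0.0660, Foxf1 0.0613, Phlda2 0.0898, Efcab10 0.103 and Rhox10 0.152. Without the deepest barcodes, Fabp9 was 4.00, Ybx2 9.73, Upp1 0.0488 and Egr4 0.103. With the cell rule applied to thinned barcodes, Ly6k was 43.2 and Dmrtb1 17.4, and with 0 somatic UMIs allowed Dmrtb1 was 6.89. Shares rise with depth: without thinning, Stra8 was found in 11.8% of germ cells at 0 h and 93.1% at 144 h, and Zbtb16 in 39.2% and 22.3%.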

Other observations

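Cd3e, which encodes a subunit of the T cell receptor complex and is on the lymphocyte list, had 0.712 CPM at 0 h and 20.0 CPM at 144 h in the germ cell sums, a ratio of 28.1 (95% interval 14.7 to 61.7). It was detected in 3 of 1365 thinned germ cells at 0 h and 112 of 2462 at 144 h. Other lymphocyte genes did not follow: Cd3g had 0.396 CPM at 0 h and 0.0865 CPM at 144 h, Cd2 1.35 CPM at 0 h and 0.541 CPM at 144 h and Ptprc, the common leukocyte antigen, 0.554 CPM at 0 h and 0.346 CPM at 144 h. Cd3e was singled out after its values were seen. Among heat shock genes, Hspa5, the chaperone of the endoplasmic reticulum, was called higher at 246 CPM at 0 h and 774 CPM at 144 h, and Hspb1, a small heat shock protein, lower at 70.8 CPM at 0 h and 11.5 CPM at 144 h. Of 15 X-linked germ cell genes counted, 5 were called higher, 1 lower and 9 between, with Tex11, a meiotic recombination gene, at 70.9 CPM at 0 h and 199.7 CPM at 144 h. The shares of all genes were 10.3% higher, 11.3% lower and 78.5% between.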
